A study of Mus musculus with 16 samples.

Results

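The exercise response of wild-type mouse quadriceps was described by setting 4 exercised MM (WT) mice against 4 sedentary MM (WT) mice, 8 of the 16 mice of the series, over the 10519 of 18865 genes whose mean over the 16 mice was at least 1 FPKM. FPKM is a gene's fragment count after division by its transcript length and by the size of the library. In these genes 114 rose and 15 fell after exercise, and the highest log2 fold changes among the genes that passed the test were those of Atf3, Nr4a3, the heat shock genes Hspa1b and Hspa1a, and Ankrd1. The MM mice are wild-type littermates of mice homozygous for CaMK2gVV, a knock-in that changes the oxidizable methionine pair of CaMKIIγ into valines. All 8 are male C57BL/6J mice of 13 to 15 weeks, they had been acclimated to the treadmill and then rested before the sampling day, and food was withdrawn that morning. Exercised mice ran 350 m on a 10° incline while the belt sped up from 15 to 23 m/min, and the muscles were taken 3 h after the run. Sedentary mice carry the label sedentary in place of exercised. The remaining 8 mice are VV mice, 4 exercised and 4 sedentary, and they enter here through the shared estimate of the spread and in 1 comparison of the exercise effects. Each whole quadriceps was homogenised, so the RNA comes from all cells of the muscle.

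A running muscle is loaded mechanically, its fibres release calcium at each contraction, and its energy use and heat production climb. The nucleus answers with waves of transcription, first of immediate early factors such as the AP-1 and NR4A genes, then of genes that serve protein folding, repair of the contractile lattice, fuel use and growth of blood vessels. Many such transcripts are short-lived, so a single sampling time shows a single moment of that sequence.

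Several of the genes that rose carry short motifs near their start that are textbook binding motifs of stress and activity factors. For reading the values beside them, 8 promoter windows are shown. Each window is 300 bases of RefSeq's GRCm38.p6, from 250 bases before to 50 bases after an annotated start, read 5′ to 3′ on the gene's strand. Capitals mark 1 motif per gene, searched on both strands. In Atf3 (chr1:191183284-191183583, minus strand), Nr4a3 (chr4:48045055-48045354, plus strand), Ppargc1a (chr5:51567676-51567975, minus strand) and Btg2 (chr1:134079106-134079405, minus strand) they mark ACGTCA or its complement TGACGT, the core of the cAMP response element, which was present in 7.51% of the 32851 mouse windows of this length and in a window of 14.2% of the 8169 tested genes that have one. In Hspa1b (chr17:34959189-34959488, minus strand), Hspa1a (chr17:34972107-34972406, minus strand) and Hspb1 (chr5:135887669-135887968, plus strand) the capitals mark GAANNTTC, a pair of facing heat shock element units, present in 7.86% of all windows and in 6.79% of these tested genes. In Srxn1 (chr2:152105274-152105573, plus strand) they mark TGANTCA, the AP-1 motif, present in 7.81% of all windows and in 5.84% of these tested genes. The full cAMP response element TGACGTCA holds the core on both strands, and none of the core, AP-1 and heat shock motifs contains another.
Atf3: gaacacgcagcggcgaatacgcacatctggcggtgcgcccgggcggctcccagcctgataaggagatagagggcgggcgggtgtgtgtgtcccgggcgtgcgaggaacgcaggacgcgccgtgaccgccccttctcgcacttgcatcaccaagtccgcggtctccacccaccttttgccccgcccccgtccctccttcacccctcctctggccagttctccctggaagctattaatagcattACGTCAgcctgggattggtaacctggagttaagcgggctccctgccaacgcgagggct
Nr4a3: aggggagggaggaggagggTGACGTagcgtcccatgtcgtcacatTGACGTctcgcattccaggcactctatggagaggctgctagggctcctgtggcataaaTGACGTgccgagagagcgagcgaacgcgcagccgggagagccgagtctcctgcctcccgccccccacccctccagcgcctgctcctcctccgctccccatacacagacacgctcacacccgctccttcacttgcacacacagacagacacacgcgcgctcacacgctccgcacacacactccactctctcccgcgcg
Ppargc1a: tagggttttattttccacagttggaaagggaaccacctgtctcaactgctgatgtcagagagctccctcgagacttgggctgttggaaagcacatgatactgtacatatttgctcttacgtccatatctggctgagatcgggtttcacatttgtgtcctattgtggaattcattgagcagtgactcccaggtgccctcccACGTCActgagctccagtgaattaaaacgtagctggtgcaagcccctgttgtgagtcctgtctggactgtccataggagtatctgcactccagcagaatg
Btg2: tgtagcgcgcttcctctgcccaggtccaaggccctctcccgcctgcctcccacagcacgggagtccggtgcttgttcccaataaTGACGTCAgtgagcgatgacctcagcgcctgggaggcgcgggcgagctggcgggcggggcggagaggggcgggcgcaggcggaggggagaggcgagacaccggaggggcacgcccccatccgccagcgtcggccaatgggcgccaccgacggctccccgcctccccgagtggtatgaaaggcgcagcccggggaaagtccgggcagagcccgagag
Hspa1b: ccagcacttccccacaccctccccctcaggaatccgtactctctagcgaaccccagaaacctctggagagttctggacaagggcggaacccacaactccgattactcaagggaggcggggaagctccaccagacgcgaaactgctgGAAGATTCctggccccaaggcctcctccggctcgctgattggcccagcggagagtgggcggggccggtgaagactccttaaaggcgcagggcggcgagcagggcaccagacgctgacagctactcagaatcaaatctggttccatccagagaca
Hspa1a: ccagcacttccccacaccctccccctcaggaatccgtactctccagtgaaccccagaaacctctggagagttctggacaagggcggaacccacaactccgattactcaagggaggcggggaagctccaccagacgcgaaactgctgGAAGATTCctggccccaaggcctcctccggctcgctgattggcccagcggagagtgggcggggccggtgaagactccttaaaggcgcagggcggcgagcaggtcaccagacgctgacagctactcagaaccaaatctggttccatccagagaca
Hspb1: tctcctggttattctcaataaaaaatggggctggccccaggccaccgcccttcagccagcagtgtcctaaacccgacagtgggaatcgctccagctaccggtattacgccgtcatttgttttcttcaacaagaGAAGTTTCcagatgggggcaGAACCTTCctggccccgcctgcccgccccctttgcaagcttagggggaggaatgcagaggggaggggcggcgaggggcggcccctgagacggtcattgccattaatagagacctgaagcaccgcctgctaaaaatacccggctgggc
Srxn1: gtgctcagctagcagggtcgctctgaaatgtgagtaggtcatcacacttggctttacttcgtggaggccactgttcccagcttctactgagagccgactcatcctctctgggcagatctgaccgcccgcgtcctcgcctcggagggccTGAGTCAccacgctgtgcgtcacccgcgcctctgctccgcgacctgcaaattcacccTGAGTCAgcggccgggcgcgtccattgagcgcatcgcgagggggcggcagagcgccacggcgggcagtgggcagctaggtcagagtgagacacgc

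Counted from the annotated start, the core lies at bases -8 to -3 of Atf3 and at -50 to -45 of Ppargc1a, and it occurs 3 times in Nr4a3, beginning at -231, -205 and -147. The Ppargc1a window lies inside the gene's annotated span (51454249 to 52115853), as does most of the Nr4a3 window (span from 48045078). The FPKM of a gene does not tell its starts apart. In Btg2 it stands on both strands of 1 palindrome from -166 to -159. The windows of Hspa1b and Hspa1a differ at 4 of 300 bases and hold the same 8 letters at -104 to -97. Hspb1 has a match at -117 to -110 and another at -97 to -90, and Srxn1 has matches at -102 to -96 and at -45 to -39. These genes were chosen for display with their values known. The motif marked in each is a motif that its window holds, so a match in every window shown is no result. Enah and Tnfrsf12a, which also rose, hold none of the core, AP-1 and heat shock motifs in their windows. A match is a string of letters, not a shown binding site. Windows were found for 82 of the 114 genes that rose, under the 80% needed, so no share of motifs is read over the genes that rose.

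The log2 fold changes below come from log2(FPKM + 0.1), exercised minus sedentary, and a gene passed where limma's two-sided p, adjusted by Benjamini-Hochberg over the 10519 genes, was under 0.05. Of all tested genes 129 passed, which is 1.23%; 1.08% rose and 0.143% fell. At an unadjusted p under 0.05 the count was 1130 genes, 10.7%. Among the genes that rose the log2 fold changes ran between 0.32 and 5.38 with a median of 1.04, and 59 rose by at least 1 log2 unit, 15 by at least 2 and 5 by at least 3. The falls were smaller, between -1.47 and -0.33 with a median of -0.56. In 128 of the 129 genes the 4 exercised mice did not overlap the 4 sedentary mice, the exception being Sec14l5. The calls came from these same mice and favour such separation, so this count is no further support for them. Over all tested genes 3.39% had every exercised mouse above and 3.35% every exercised mouse below. The median over all tested genes was -0.05, and 37.5% were above 0. In bulk samples such as these, fewer cells of a type and less RNA per cell cannot be told apart.

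**Figure D1:**
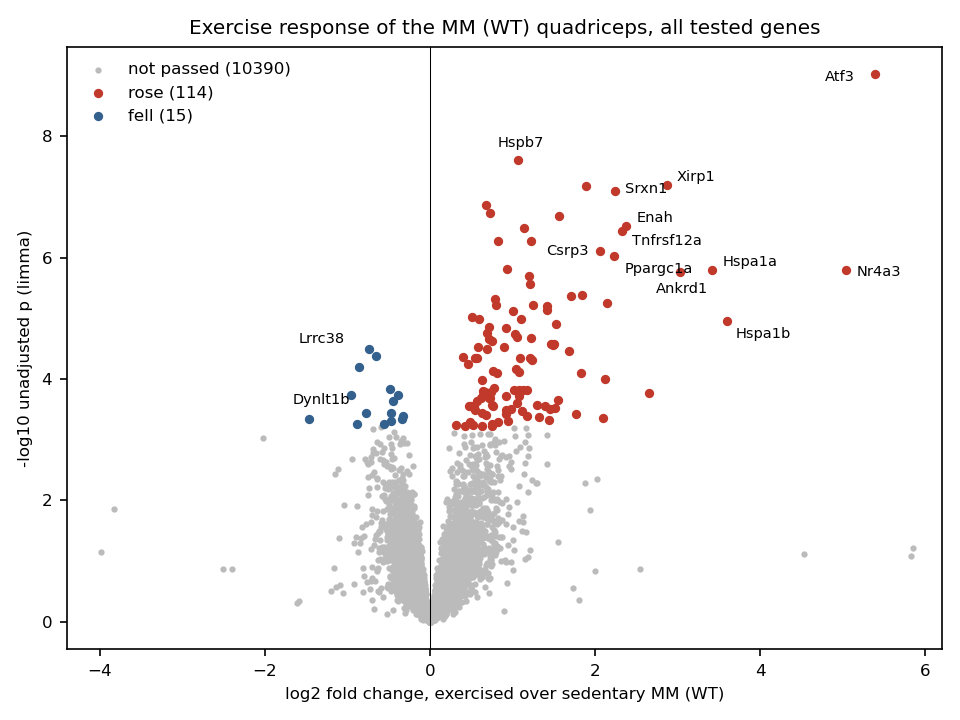
Log2 fold change of each tested gene, exercised over sedentary MM (WT) mice (horizontal), against -log10 of limma's unadjusted p (vertical). The 114 genes that rose (red) reach 5.38, the 15 that fell (blue) reach -1.47, and the 10390 genes that did not pass are grey.

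The 8 MM libraries were alike in the measures the table allows. FPKM sums ran between 485446 and 492997 in exercised mice and between 470634 and 513468 in sedentary mice. Relative depth, read from the step size of low values, was 1.02 to 1.22 times that of the shallowest mouse in exercised MM mice and 1.08 to 1.23 times in sedentary MM mice. Mice are numbered 1 to 4 within each group as names only. The number before the dash in the mice's own names is shared by no exercised and sedentary MM mouse, no source used here gives its meaning, and it and exercise cannot be told apart. The replicates are separate mice, but exercised mice 1 and 2 share such a number, as do sedentary mice 3 and 4. Some MM mice also share it with VV mice of the same treatment. The fit took no account of it. Limma's p-values set each change against the spread between mice of a group, estimated over all 4 groups, VV mice included. The tissue label was checked against skeletal muscle markers, which stood at the top of the table, and Acta1, skeletal actin, was at 12860.0 to 18680.0 FPKM in exercised mice and at 10280.0 to 19190.0 FPKM in sedentary mice. Of the 13 tested muscle markers, 0 passed, and 7 were above 0 with a median of 0.02. The fast myosins Myh1, Myh2 and Myh4 and mitochondrially encoded genes were not analysed here.

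Each call was repeated with 1 of the 16 mice left out. Of the 129 calls, 59 held in all 16 such fits, 56 of genes that rose and 3 of genes that fell (Zfp46, Lrrc38 and Acot11). No fit without 1 mouse moved the log2 fold change of a called gene by more than 1.5 times. The number of genes that passed changed by over 1.5 times without exercised mouse 1 (69 genes), 2 (82) or 4 (82) and without sedentary mouse 3 (75) or 4 (81), and by less without any other mouse. The number that rose did so without exercised mouse 1 (65) or 4 (70) and without sedentary mouse 3 (65). The number that fell did so without exercised mouse 1 (4), 2 (5) or 3 (9), sedentary mouse 1 (5), 2 (9) or 4 (5), or sedentary VV mouse 2 (9). Below, a gene is said to no longer pass where its adjusted p rose to 0.05 or more in a fit without a mouse or under another setting, and unless a VV mouse is named the mouse is an MM mouse.

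Among the genes that passed, Atf3 and Nr4a3, both immediate early transcription factors, had the highest log2 fold changes. Atf3, a stress-induced bZIP factor, had 94.5, 96.2, 44.9 and 81.3 FPKM in exercised mice, against 2.57, 1.73, 1.122 and 1.73 FPKM in sedentary mice (log2 fold change 5.38, SE 0.41, adjusted p = 1.00e-05). Every exercised mouse stood far above every sedentary mouse, and exercised mouse 3 was the lowest of its group. Among the 16 tested AP-1 and bZIP genes, 3 rose and 0 fell, 12 were above 0 and the median was 0.26. The other members that rose are small MAF proteins, which lack a transactivation domain and pair with other bZIP factors. Maff had 5.64, 5.26, 4.56 and 2.96 FPKM in exercised mice, against 2.25, 1.85, 1.38 and 1.19 FPKM in sedentary mice (log2 fold change 1.41, SE 0.22, adjusted p = 0.00234), and Mafk had 18.6, 12.7, 17.4 and 9.95 FPKM in exercised mice, against 5.18, 7.17, 5.75 and 6.48 FPKM in sedentary mice (log2 fold change 1.21, SE 0.22, adjusted p = 0.00845). Fos, a founding member of AP-1, had 8.18, 11.5, 2.198 and 5.93 FPKM in exercised mice, against 1.27, 0.851, 1.52 and 2.18 FPKM in sedentary mice, with no overlap but a wide spread (log2 fold change 2.03, SE 0.61, adjusted p = 0.168), and it did not pass.

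Nr4a3, an orphan nuclear receptor, had 75.8, 24.8, 59.1 and 35.8 FPKM in exercised mice, against 4.58, 1.07, 0.651 and 0.737 FPKM in sedentary mice (log2 fold change 5.04, SE 0.65, adjusted p = 9.39e-04). The highest exercised mouse was 3.06 times the lowest, and sedentary mouse 1 was the highest of its group. Rrad, a small GTPase that restrains voltage-gated calcium channels, had 6.24, 5.22, 1.46 and 4.03 FPKM in exercised mice, against 1.02, 0.605, 0.581 and 1.02 FPKM in sedentary mice (log2 fold change 2.12, SE 0.41, adjusted p = 0.0160). Csrnp1, a nuclear protein of the immediate early class, had 4.06, 4.71, 1.27 and 2.42 FPKM in exercised mice, against 0.576, 1.01, 0.876 and 0.594 FPKM in sedentary mice (log2 fold change 1.77, SE 0.40, adjusted p = 0.0363). In both, exercised mouse 3 lay nearest to the sedentary mice. Myc, a factor of growth and ribosome production, rose by 1.46 ± 0.32, adjusted p = 0.0332, and Arid5b, a DNA-binding protein of the ARID family, by 1.11 ± 0.25, adjusted p = 0.0338, as log2 fold change ± SE. With Nr4a3 these make 5 of 21 tested genes of the list of NR4A, EGR and other immediate early genes, of which 18 were above 0 and whose median was 0.54. Egr1, a zinc finger factor, had 10.8, 9.12, 4.94 and 8.62 FPKM in exercised mice, against 1.08, 1.54, 1.38 and 7.03 FPKM in sedentary mice, overlapped and did not pass (log2 fold change 1.94 ± 0.70, adjusted p = 0.299). Rrad no longer passed without exercised mouse 1, 2 or 4, or sedentary mouse 2 or 3 (adjusted p = 0.0504 to 0.0692). Csrnp1 no longer passed without exercised mouse 1, 2 or 4, any sedentary mouse, or sedentary VV mouse 1 (adjusted p = 0.0526 to 0.131) or at a pseudocount of 1 or with no filter on low values. Myc no longer passed without exercised mouse 1, 2 or 4, or sedentary mouse 1, 3 or 4 (adjusted p = 0.0884 to 0.116) or with no filter on low values. Arid5b no longer passed without exercised mouse 1, 2 or 4, sedentary mouse 2, 3 or 4, or sedentary VV mouse 1 (adjusted p = 0.0504 to 0.127) or with no filter on low values.

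Of the coactivator, growth arrest and Krüppel-like lists, 1 or 2 genes each rose. Ppargc1a, which encodes PGC-1α, a coactivator of mitochondrial genes, had 65.2, 35.9, 75.8 and 48.8 FPKM in exercised mice, against 17.4, 9.19, 9.58 and 11.3 FPKM in sedentary mice (log2 fold change 2.23, SE 0.29, adjusted p = 6.61e-04). Here exercised mouse 3 was the highest of its group, the opposite of its place in Atf3. It was the only 1 of 24 tested PGC-1 coactivators and partners that rose, and the median of the list was -0.01. Btg2, an antiproliferative gene, had 30.3, 33.5, 15.2 and 18.8 FPKM in exercised mice, against 6.27, 6.66, 5.96 and 6.98 FPKM in sedentary mice (log2 fold change 1.83, SE 0.34, adjusted p = 0.0130). Plk2, a polo-like kinase, rose by 0.92 ± 0.19, adjusted p = 0.0240, which made 2 of 21 tested growth arrest and DNA damage genes, with a list median of 0.00. Klf5, 1 of 12 tested Krüppel-like factors, had 2.88, 1.76, 2.09 and 3.18 FPKM in exercised mice, against 1.31, 0.965, 1.18 and 1.04 FPKM in sedentary mice (log2 fold change 1.05, SE 0.20, adjusted p = 0.0120), while Klf10 had a log2 fold change of 0.98 ± 0.28, adjusted p = 0.136. Of the Krüppel-like factors 11 were above 0. Btg2 no longer passed without exercised mouse 1 or 2 (adjusted p = 0.0507 to 0.0624). Plk2 no longer passed without exercised mouse 1, 2 or 4, or sedentary mouse 2 or 3 (adjusted p = 0.0636 to 0.0826) or when the 8 MM mice were fitted alone. Klf5 no longer passed without exercised mouse 1 or 4 (adjusted p = 0.0508 to 0.0605).

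**Figure D2:**
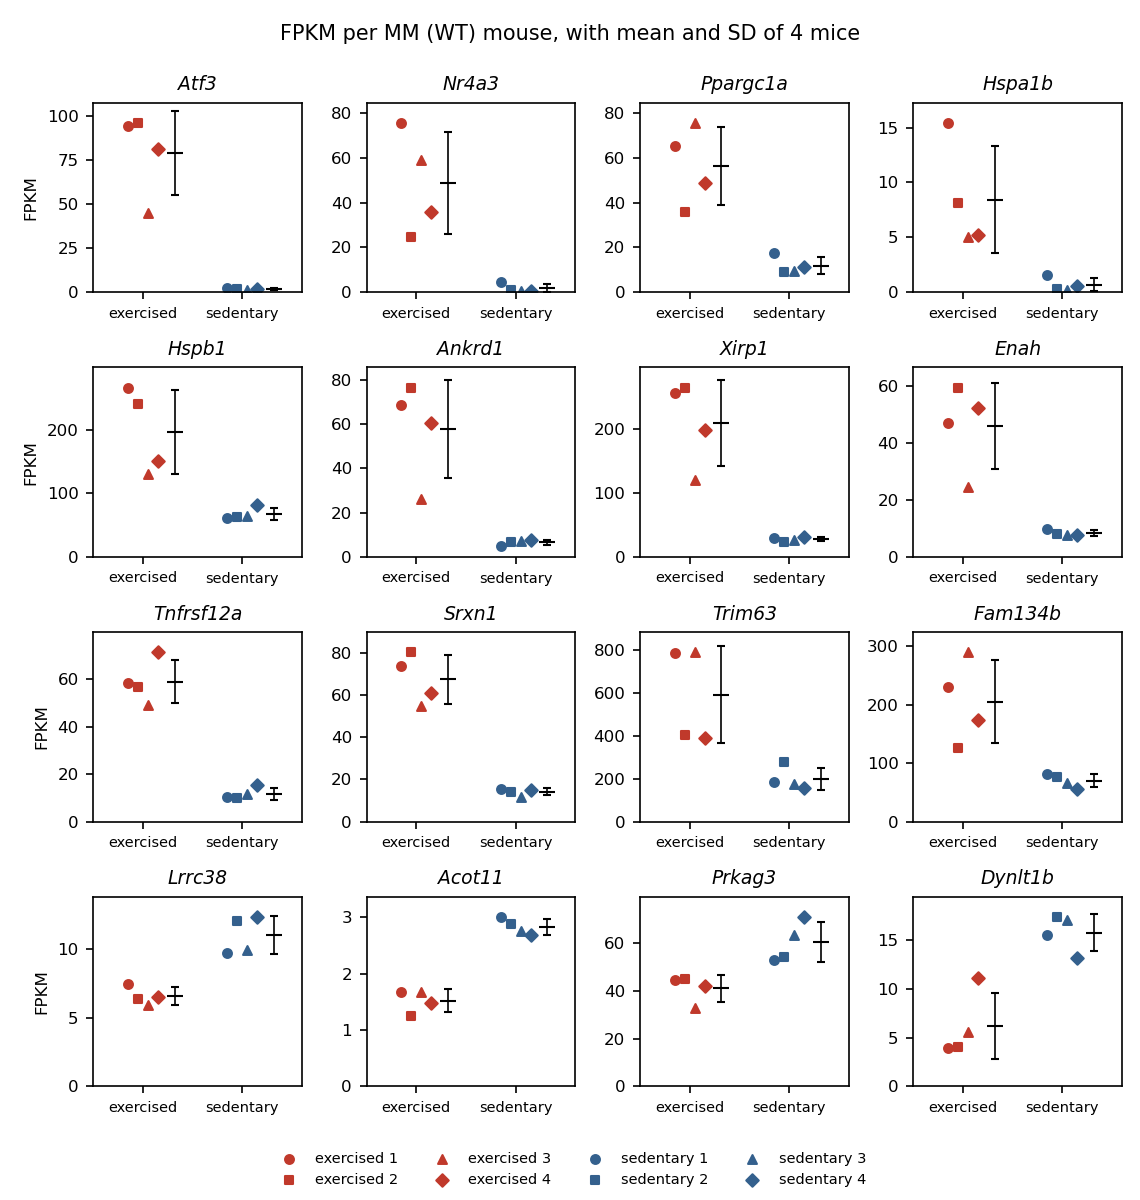
FPKM of 16 genes in each MM (WT) mouse, exercised (red) left of sedentary (blue), 1 marker shape per mouse of a group, with the mean and SD of 4 mice. Atf3 stands at 44.9 FPKM or more in every exercised mouse and at 2.57 FPKM or less in every sedentary mouse, and Lrrc38 shows the opposite order.

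Heat shock proteins keep unfolded proteins soluble and refold them. Hspa1b and Hspa1a encode the inducible HSP70 from near-identical copies, so fragments may have been divided between them, and each value is uncertain while both point one way. Hspa1b had 15.4, 8.11, 5.01 and 5.202 FPKM in exercised mice, against 1.55, 0.323, 0.232 and 0.589 FPKM in sedentary mice (log2 fold change 3.60, SE 0.56, adjusted p = 0.00346). Hspa1a had 18.3, 12.3, 6.74 and 7.04 FPKM in exercised mice, against 1.89, 0.673, 0.492 and 0.842 FPKM in sedentary mice (log2 fold change 3.42, SE 0.46, adjusted p = 9.39e-04). In both genes exercised mouse 1 was the highest, exercised mouse 3 the lowest, and sedentary mouse 1 the highest of the sedentary mice. Dnajb4 and Dnaja4, J-domain proteins that stimulate the ATPase of HSP70, rose by 1.10 ± 0.18, adjusted p = 0.00327, and by 0.69 ± 0.12, adjusted p = 0.00489. These are 4 of 37 tested HSP70, J-protein and HSP90 genes, and the median of the 37 was -0.01, with 18 above 0.

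Small heat shock proteins bind unfolding proteins without ATP and are abundant at the Z-disc. Hspb1 had 267, 240.1, 130.0 and 150.5 FPKM in exercised mice, against 61.4, 62.2, 64.4 and 81.5 FPKM in sedentary mice (log2 fold change 1.49, SE 0.25, adjusted p = 0.00623). Hspb7 had 234, 254, 197 and 229.8 FPKM in exercised mice, against 99.4, 112, 113 and 109.9 FPKM in sedentary mice (log2 fold change 1.07, SE 0.11, adjusted p = 1.27e-04). Cryab, which encodes αB-crystallin, had 1019, 1065, 686 and 792 FPKM in exercised mice, against 561, 516, 497 and 597 FPKM in sedentary mice (log2 fold change 0.69, SE 0.12, adjusted p = 0.00675). The groups were apart in all of them, with exercised mice 1 and 2 above exercised mice 3 and 4 in Hspb1 and Cryab. Bag3, a co-chaperone that hands filamin to HSP70 and to autophagy, had 72.3, 66.1, 59.2 and 64.0 FPKM in exercised mice, against 51.0, 46.6, 44.8 and 47.3 FPKM in sedentary mice (log2 fold change 0.46, SE 0.09, adjusted p = 0.00994). Together these are 4 of 13 tested genes of the list, whose median was 0.11. Bag3 no longer passed without exercised mouse 1 (adjusted p = 0.05005).

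Of the list of Xin, filamin and sarcomere repair genes, 7 of 28 rose and 0 fell, with 18 above 0 and a median of 0.16. The lists were chosen with earlier results of these data known, so their counts are not ranked against each other. Xirp1, an actin-binding Xin protein that gathers at damaged sarcomeres, had 255, 264, 119 and 197 FPKM in exercised mice, against 29.7, 23.6, 25.8 and 30.7 FPKM in sedentary mice (log2 fold change 2.86, SE 0.29, adjusted p = 1.68e-04). Flnc, the muscle filamin that links actin at the Z-disc, had 237, 226, 148 and 172 FPKM in exercised mice, against 56.4, 73.5, 84.7 and 76.3 FPKM in sedentary mice (log2 fold change 1.42, SE 0.22, adjusted p = 0.00265). Enah, an actin-elongating protein of the Ena/VASP family, had 47.0, 59.3, 24.5 and 52.1 FPKM in exercised mice, against 9.79, 8.13, 7.68 and 7.69 FPKM in sedentary mice (log2 fold change 2.38, SE 0.28, adjusted p = 3.45e-04). Exercised mouse 3 was the lowest exercised mouse in each of the 7 genes that rose. Kbtbd5 (Klhl40 in RefSeq), a protein that stabilises nebulin and leiomodin, had 111, 102, 57.3 and 72.2 FPKM in exercised mice, against 20.3, 24.1, 28.2 and 29.8 FPKM in sedentary mice (log2 fold change 1.70, SE 0.25, adjusted p = 0.00196). Lmcd1, a LIM domain protein, rose by 1.25 ± 0.19, adjusted p = 0.00233, and Lmod2, a leiomodin that nucleates actin, by 0.93 ± 0.20, adjusted p = 0.0338, and Bag3 belongs here as well. Lmod2 no longer passed without exercised mouse 1, 2 or 4, or sedentary mouse 1, 3 or 4 (adjusted p = 0.0680 to 0.116) or with no filter on low values.

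Titin-linked stretch sensors sit on the elastic filament of the sarcomere. Ankrd1 and Ankrd2 encode ankyrin repeat proteins that bind titin at the I-band and can enter the nucleus. Ankrd1 had 68.6, 76.6, 26.3 and 60.6 FPKM in exercised mice, against 4.78, 6.64, 7.26 and 7.68 FPKM in sedentary mice (log2 fold change 3.03, SE 0.40, adjusted p = 9.48e-04). Ankrd2, the more abundant of the pair per length, had 160.4, 193, 121 and 179.9 FPKM in exercised mice, against 61.0, 64.6, 74.3 and 79.1 FPKM in sedentary mice (log2 fold change 1.22, SE 0.17, adjusted p = 0.00135). Csrp3, the muscle LIM protein, had 152, 211, 97.3 and 203 FPKM in exercised mice, against 39.2, 34.9, 41.2 and 37.0 FPKM in sedentary mice (log2 fold change 2.06, SE 0.26, adjusted p = 5.74e-04). In all of them the groups were apart, and exercised mouse 3 was the lowest exercised mouse. Trim63, the ubiquitin ligase MuRF1, which binds titin at the M-band, had 786, 402, 789 and 388 FPKM in exercised mice, against 184, 277, 177 and 158 FPKM in sedentary mice (log2 fold change 1.52, SE 0.33, adjusted p = 0.0323), with exercised mice 1 and 3 near each other and well above exercised mice 2 and 4. Murc (Cavin4 in RefSeq), a caveolar coat protein of muscle, rose by 0.42 ± 0.10, adjusted p = 0.0488. These make 5 of 23 tested members, with 14 above 0 and a median of 0.02. Ankrd2 and Csrp3 are also the 2 of 13 slow fibre genes that rose, and the median of that list was -0.06. Trim63 no longer passed without exercised mouse 1 or 3, sedentary mouse 1, 3 or 4, or sedentary VV mouse 1 (adjusted p = 0.0576 to 0.111). Murc no longer passed without exercised mouse 1, 2 or 4, any sedentary mouse, exercised VV mouse 1 or 2, or sedentary VV mouse 1, 2 or 4 (adjusted p = 0.0505 to 0.154) or with no filter on low values or with plain eBayes.

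A few members of the cytoskeletal and membrane repair lists rose, and Mustn1 rose outside them. Mustn1, a small nuclear protein of the musculoskeletal system, had 118, 115, 67.4 and 85.0 FPKM in exercised mice, against 20.9, 25.4, 26.5 and 29.0 FPKM in sedentary mice (log2 fold change 1.89, SE 0.20, adjusted p = 1.68e-04). Abra, also called STARS, an actin-binding activator of serum response factor, had 288, 352, 212 and 249 FPKM in exercised mice, against 156, 121, 104 and 91.8 FPKM in sedentary mice (log2 fold change 1.22, SE 0.20, adjusted p = 0.00533). Tubb6, a beta-tubulin, rose by 1.08 ± 0.21, adjusted p = 0.0128. Abra and Tubb6 are 2 of 29 tested actin cytoskeleton and SRF genes, with 19 above 0 and a median of 0.09. Ehd4, an endocytic ATPase, was the 1 of 19 membrane repair genes that rose (0.71 ± 0.12, adjusted p = 0.00552). Tubb6 no longer passed without exercised mouse 1, or sedentary mouse 3 (adjusted p = 0.05005 to 0.0624).

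**Figure D3:**
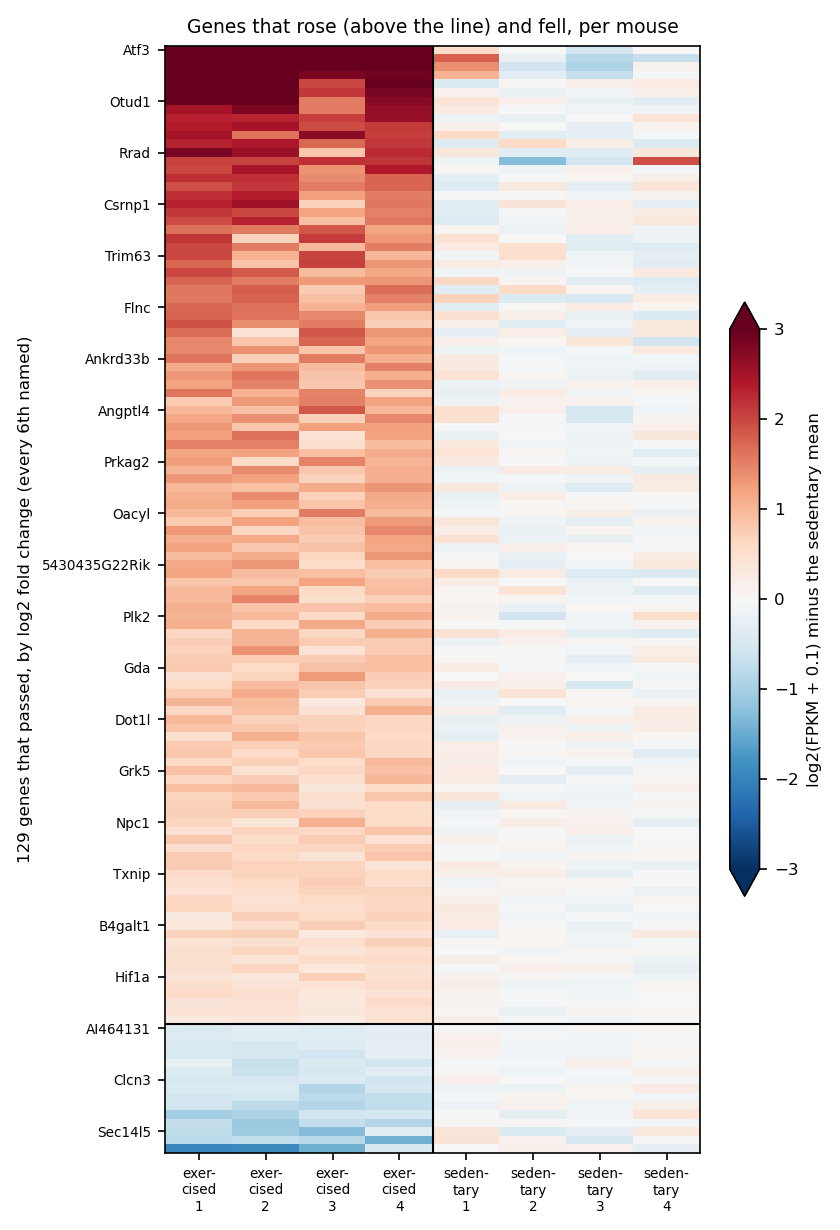
Log2(FPKM + 0.1) minus the sedentary mean for the 129 genes that passed, in rows by log2 fold change, in the 4 exercised (left) and the 4 sedentary (right) MM (WT) mice. Exercised mouse 3 is paler than the other exercised mice in many of the upper rows, and it is the lowest of the 4 in 59 of the 114 genes that rose.

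Few members of the signalling lists rose, among them receptors and ligands. Tnfrsf12a, the receptor for the cytokine TWEAK, had 58.3, 56.8, 49.1 and 71.2 FPKM in exercised mice, against 10.4, 9.88, 11.4 and 15.3 FPKM in sedentary mice (log2 fold change 2.32, SE 0.28, adjusted p = 3.45e-04). Hbegf, an EGF receptor ligand shed from the cell surface, had 31.1, 33.98, 20.7 and 27.2 FPKM in exercised mice, against 4.70, 9.47, 7.13 and 4.64 FPKM in sedentary mice (log2 fold change 2.15, SE 0.32, adjusted p = 0.00233), and it was the 1 of 7 tested EGF family genes that rose. Cyr61 (Ccn1 in RefSeq), a matricellular protein and textbook YAP target, had 46.4, 59.6, 22.5 and 35.8 FPKM in exercised mice, against 8.94, 11.2, 13.3 and 15.2 FPKM in sedentary mice (log2 fold change 1.69, SE 0.29, adjusted p = 0.00721). The groups were apart in each. Map3k8, a kinase above ERK, had 3.18, 3.61, 2.43 and 2.79 FPKM in exercised mice, against 0.554, 0.925, 0.612 and 1.02 FPKM in sedentary mice (log2 fold change 1.84, SE 0.28, adjusted p = 0.00196). Of the TNF receptor and NF-κB list 2 of 22 rose, Tnfrsf12a and Tlr4 (log2 fold change 0.83 ± 0.19, adjusted p = 0.0454), and its median was 0.02. Of the YAP, TEAD and CCN list 2 of 17 rose, Ankrd1 and Cyr61, with a median of 0.07. No member of the MAPK feedback list (16 tested, 9 above 0, median 0.11) passed, and none of 13 tested cytokines, chemokines and myokines did (8 above 0, median 0.27). Tlr4 was low in all 8 mice, between 0.635 and 1.90 FPKM, and no longer passed without any exercised mouse, sedentary mouse 2, 3 or 4, or any VV mouse (adjusted p = 0.0504 to 0.166) or with no filter on low values, after quantile normalization or when the 8 MM mice were fitted alone.

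Angiogenic factors and receptors had 4 of 28 tested members that rose, with 19 above 0 and a median of 0.10. They are Cyr61, Angptl4, Fgf1 and Hif1a. Angptl4, a secreted inhibitor of lipoprotein lipase, had 8.84, 8.204, 16.2 and 8.91 FPKM in exercised mice, against 6.199, 4.90, 3.03 and 4.11 FPKM in sedentary mice (log2 fold change 1.18, SE 0.27, adjusted p = 0.0382), with exercised mouse 3 well above the rest. Fgf1, a growth factor kept in muscle, rose by 0.55 ± 0.12, adjusted p = 0.0336, and Hif1a, the oxygen-sensitive factor, by 0.48 ± 0.11, adjusted p = 0.0454. Vegfa, the main endothelial growth factor, had 119, 84.4, 116 and 99.2 FPKM in exercised mice, against 95.0, 65.2, 71.6 and 80.5 FPKM in sedentary mice, overlapped and did not pass (log2 fold change 0.42 ± 0.14, adjusted p = 0.197). Angptl4 no longer passed without any exercised mouse, sedentary mouse 2, 3 or 4, exercised VV mouse 3 or 4, or sedentary VV mouse 1 or 2 (adjusted p = 0.0503 to 0.145) or with no filter on low values or when the 8 MM mice were fitted alone. Fgf1 no longer passed without exercised mouse 2, 3 or 4, or sedentary mouse 2, 3 or 4 (adjusted p = 0.0716 to 0.123) or with no filter on low values or when the 8 MM mice were fitted alone. Hif1a no longer passed without any MM mouse, or sedentary VV mouse 1, 2 or 4 (adjusted p = 0.0512 to 0.144) or with no filter on low values, with plain eBayes or when the 8 MM mice were fitted alone.

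Redox and folding stress genes moved in part. Srxn1, sulfiredoxin, which repairs over-oxidized peroxiredoxins, had 73.9, 80.3, 55.1 and 60.8 FPKM in exercised mice, against 15.7, 13.9, 11.9 and 15.2 FPKM in sedentary mice (log2 fold change 2.24, SE 0.24, adjusted p = 1.68e-04). Txnip, an inhibitor of thioredoxin and of glucose uptake, had 378, 400.3, 407 and 378 FPKM in exercised mice, against 283, 291, 206 and 243 FPKM in sedentary mice (log2 fold change 0.62, SE 0.13, adjusted p = 0.0256). The groups were apart in both genes, which are the 2 of 30 tested NRF2 and antioxidant genes that rose, with 22 above 0 and a median of 0.09. Hmox1, heme oxygenase, had 15.0, 10.0, 13.8 and 6.82 FPKM in exercised mice, against 4.84, 4.69, 3.63 and 6.12 FPKM in sedentary mice (log2 fold change 1.18, SE 0.29, adjusted p = 0.0630), apart, but with an adjusted p above the threshold. Hmox1 passed without exercised mouse 4, sedentary VV mouse 4 or exercised VV mouse 1 (adjusted p = 0.0273 to 0.0490). The metallothioneins Mt2 and Mt1 were also apart and did not pass, with log2 fold changes of 1.87 ± 0.57, adjusted p = 0.181, and of 1.24 ± 0.37, adjusted p = 0.169. In the unfolded protein and integrated stress response 2 of 25 rose, with 20 above 0 and a median of 0.09. They are Ppp1r15a, the phosphatase subunit that restarts translation (0.92 ± 0.15, adjusted p = 0.00413), and Ern1, the sensor IRE1 (0.89 ± 0.16, adjusted p = 0.00655). Txnip no longer passed without any exercised mouse, or sedentary mouse 3 or 4 (adjusted p = 0.0603 to 0.103).

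Turnover and fuel genes came next. Gabarapl1, an ATG8 protein of the autophagosome, had 66.2, 66.2, 86.1 and 68.5 FPKM in exercised mice, against 43.6, 36.8, 32.2 and 37.3 FPKM in sedentary mice (log2 fold change 0.94, SE 0.13, adjusted p = 9.39e-04), and it was the 1 of 32 tested genes of the autophagy and lysosome list that rose, a list that does not hold every such gene. Fam134b (Retreg1 in RefSeq), a receptor for autophagy of the endoplasmic reticulum that was named after its values were seen, had 230.3, 126, 289.7 and 175 FPKM in exercised mice, against 81.6, 77.0, 65.7 and 55.9 FPKM in sedentary mice (log2 fold change 1.497, SE 0.25, adjusted p = 0.00618). Trim63 was the 1 of 22 ubiquitin ligase and FOXO genes that rose, while Fbxo32, the ligase atrogin-1, had 146, 104, 184 and 107 FPKM in exercised mice, against 133, 106, 75.9 and 71.2 FPKM in sedentary mice and did not pass (log2 fold change 0.49 ± 0.21, adjusted p = 0.396). None of 32 proteasome subunits passed, and their median was -0.01. Slc38a2, a carrier of small neutral amino acids, had 92.5, 79.5, 66.6 and 69.7 FPKM in exercised mice, against 42.6, 29.2, 22.1 and 20.9 FPKM in sedentary mice (log2 fold change 1.47, SE 0.25, adjusted p = 0.00618), the 1 of 13 amino acid and cation transporters that rose. Rcan1, an inhibitor of calcineurin, rose by 1.44 ± 0.32, adjusted p = 0.0429, 1 of 12 genes of its list. Rcan1 no longer passed without exercised mouse 1, 2 or 4, sedentary mouse 2, 3 or 4, exercised VV mouse 4, or sedentary VV mouse 1 or 4 (adjusted p = 0.0504 to 0.150) or at a pseudocount of 1 or with no filter on low values.

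AMPK, the energy-sensing kinase, showed opposite changes in 2 of its regulatory gamma subunits, out of 10 subunit genes tested. Prkag2 had 15.4, 9.77, 18.2 and 13.1 FPKM in exercised mice, against 7.70, 6.11, 5.75 and 6.25 FPKM in sedentary mice (log2 fold change 1.09, SE 0.20, adjusted p = 0.00845), and Prkag3, the gamma subunit of fast muscle, had 44.6, 44.9, 32.7 and 41.8 FPKM in exercised mice, against 53.0, 54.1, 63.4 and 70.8 FPKM in sedentary mice (log2 fold change -0.56, SE 0.13, adjusted p = 0.0467). Every exercised mouse was above every sedentary mouse for Prkag2 and below every one for Prkag3. Exercised mouse 3 was the most extreme in both, highest in Prkag2 and lowest in Prkag3. Fatty acid genes likewise had 1 rise, Angptl4, and 1 fall, Acot11, in 39 tested, with a median of 0.01. No gene of glucose uptake, glycolysis and glycogen passed in 34 tested. Hk2, hexokinase 2, had 311, 134, 285 and 154 FPKM in exercised mice, against 93.3, 96.7, 86.7 and 84.1 FPKM in sedentary mice, apart but variable (log2 fold change 1.20, SE 0.31, adjusted p = 0.0825), and passed without exercised VV mouse 2 (adjusted p = 0.00847). Pdk4, the kinase that shuts pyruvate dehydrogenase, had 703, 884, 1099 and 988 FPKM in exercised mice, against 787, 629, 445 and 463 FPKM in sedentary mice and overlapped (log2 fold change 0.68, SE 0.21, adjusted p = 0.194). Prkag3 no longer passed without any exercised mouse, sedentary mouse 2, 3 or 4, exercised VV mouse 2 or 3, or sedentary VV mouse 1 or 4 (adjusted p = 0.0546 to 0.157) or with no filter on low values, after median-ratio scaling, after quantile normalization, with plain eBayes or when the 8 MM mice were fitted alone.

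The remaining genes among the 20 highest are of mixed kind. Otud1, a deubiquitinase, had 53.4, 61.1, 19.1 and 42.6 FPKM in exercised mice, against 8.44, 7.03, 5.46 and 5.05 FPKM in sedentary mice (log2 fold change 2.65, SE 0.53, adjusted p = 0.0232), apart, with exercised mouse 3 lowest. A630019I02Rik, annotated as a long non-coding RNA on chromosome 13 (93094833 to 93098968 in GRCm38.p6), had 105, 103, 115 and 112 FPKM in exercised mice, against 23.1, 10.4, 17.2 and 97.1 FPKM in sedentary mice (log2 fold change 2.10, SE 0.46, adjusted p = 0.0406). Its exercised mice were close together, and sedentary mouse 4 lay just under them, far from the other sedentary mice. Otud1 no longer passed without exercised mouse 1, 2 or 4, or sedentary mouse 2, 3 or 4 (adjusted p = 0.0546 to 0.0826). A630019I02Rik no longer passed without any exercised mouse, sedentary mouse 1, 2 or 3, exercised VV mouse 1, or any sedentary VV mouse (adjusted p = 0.0516 to 0.144) or at a pseudocount of 1 or when the 8 MM mice were fitted alone. Outside these and the lists, genes with small errors were Rbm20, a splicing factor of titin (0.73 ± 0.09, adjusted p = 2.73e-04), Alpk2, an alpha-kinase (0.67 ± 0.08, adjusted p = 2.35e-04), Midn, midnolin (1.14 ± 0.14, adjusted p = 3.45e-04), and Ifrd1, a transcriptional coregulator (1.23 ± 0.16, adjusted p = 4.38e-04), all named after their values were seen. Each of these 4 calls held in all 16 fits without 1 mouse. In all, 51 of the 114 genes that rose and 4 of the 15 that fell are in a pathway list, and the lists share members. Over all lists together 52 of 1025 tested genes rose and 4 fell, and over all tested genes 1.08% rose and 0.143% fell. The lists were chosen with earlier results of these data known, so their counts are not read against those shares. In 42 of the genes that rose the sedentary mean was under 5 FPKM.

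**Figure D4:**
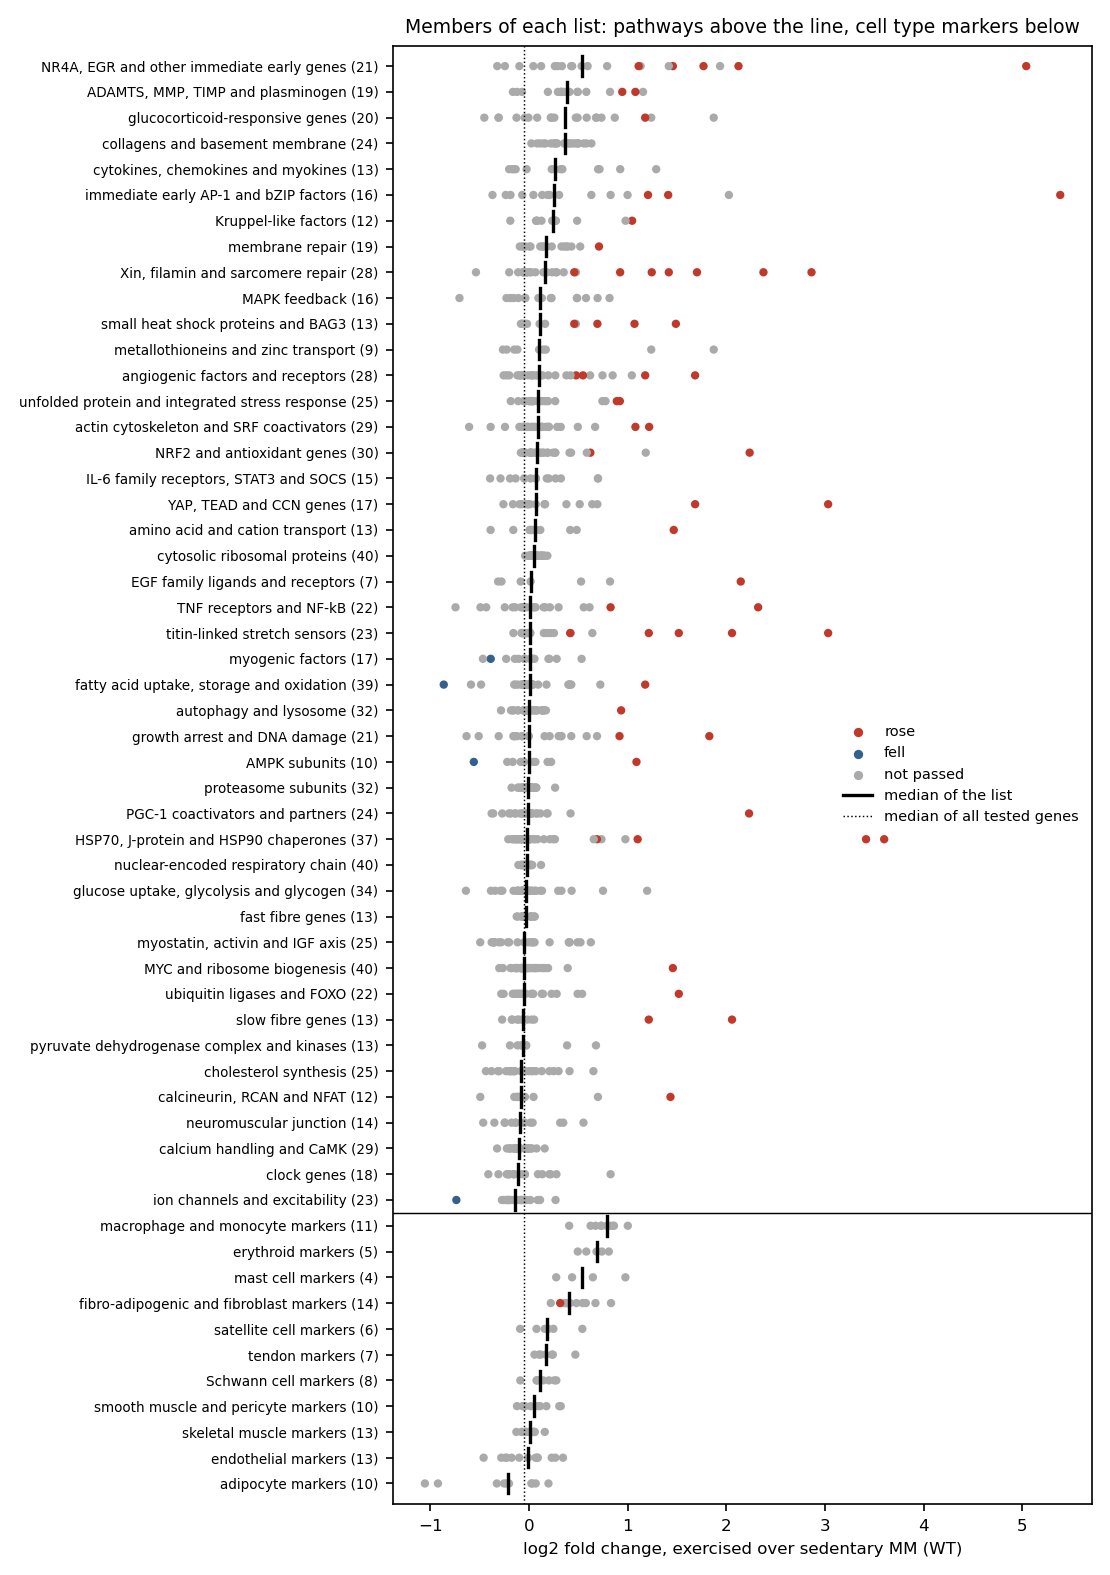
Log2 fold change of each tested member (points), exercised over sedentary MM (WT), for the pathway lists (above the line) and the cell type marker lists (below it), with the number tested in parentheses, the list median (thick bar) and the median of all tested genes, -0.05 (dotted). Members that rose are red, members that fell blue and the rest grey, and 0 of 11 macrophage and monocyte markers passed although all 11 lie above 0.

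The 15 genes that fell had changes mostly under 1 log2 unit. Dynlt1b, a dynein light chain with near-identical neighbouring copies and therefore uncertain, had 3.94, 4.05, 5.58 and 11.2 FPKM in exercised mice, against 15.5, 17.4, 17.1 and 13.2 FPKM in sedentary mice (log2 fold change -1.47, SE 0.33, adjusted p = 0.0414), and exercised mouse 4 lay nearest to the sedentary mice. Acot11, an acyl-CoA thioesterase, had 1.68, 1.25, 1.68 and 1.48 FPKM in exercised mice, against 3.00, 2.88, 2.76 and 2.68 FPKM in sedentary mice (log2 fold change -0.86, SE 0.16, adjusted p = 0.0110). Lrrc38, an auxiliary subunit of large-conductance potassium channels, had 7.48, 6.38, 5.96 and 6.51 FPKM in exercised mice, against 9.76, 12.1, 9.98 and 12.4 FPKM in sedentary mice (log2 fold change -0.73, SE 0.13, adjusted p = 0.00675). The mice were apart in these genes. Lrrc38 was the 1 of 23 ion channel and excitability genes that fell, and 4 of the 23 were above 0 with a median of -0.14. Zfp46, a zinc finger gene, had 6.35, 6.54, 5.45 and 5.57 FPKM in exercised mice, against 9.05, 10.1, 9.66 and 8.90 FPKM in sedentary mice (log2 fold change -0.65, SE 0.12, adjusted p = 0.00834). Mamstr, a coactivator of MEF2, averaged 6.89 ± 1.14 FPKM in exercised mice and 11.9 ± 2.64 FPKM in sedentary mice (SD, n = 4 each; log2 fold change -0.77 ± 0.17, adjusted p = 0.0363).

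Other falls were Tnfrsf19, an orphan TNF receptor (-0.95 ± 0.20, adjusted p = 0.0238), Sec14l5, a lipid-transfer-like protein (-0.88 ± 0.21, adjusted p = 0.0474), and Clcn3, a chloride-proton exchanger (-0.49 ± 0.10, adjusted p = 0.0219). Trim7, a ubiquitin ligase that binds glycogenin (-0.47 ± 0.11, adjusted p = 0.0363), Ppcs, an enzyme of coenzyme A synthesis (-0.47 ± 0.11, adjusted p = 0.0431), and Klhl8, a Kelch-like protein (-0.45 ± 0.10, adjusted p = 0.0269), fell by similar amounts. Ado, a thiol dioxygenase (-0.34 ± 0.08, adjusted p = 0.0414), and AI464131 (Myorg in RefSeq, -0.33 ± 0.07, adjusted p = 0.0382) had the smallest falls. These values are log2 fold changes ± SE.

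Of the 15 calls among the falls, 12 were lost without at least 1 mouse. Dynlt1b no longer passed without exercised mouse 1, 2 or 3, any sedentary mouse, or sedentary VV mouse 1 or 2 (adjusted p = 0.0561 to 0.154) or with no filter on low values or when the 8 MM mice were fitted alone. Tnfrsf19 no longer passed without exercised mouse 1 or 4, or sedentary mouse 1, 2 or 4 (adjusted p = 0.05005 to 0.0765) or when the 8 MM mice were fitted alone. Sec14l5 no longer passed without exercised mouse 1, 2 or 3, sedentary mouse 1, 3 or 4, any exercised VV mouse, or sedentary VV mouse 1, 2 or 4 (adjusted p = 0.0508 to 0.155) or with no filter on low values, with plain eBayes or when the 8 MM mice were fitted alone. These are the 3 largest falls, and none of their calls held throughout. Among the smaller falls, Mamstr no longer passed without exercised mouse 1 or 2, sedentary mouse 1, 3 or 4, or sedentary VV mouse 2 (adjusted p = 0.0505 to 0.131) or with no filter on low values or with plain eBayes. Clcn3 no longer passed without exercised mouse 1, 2 or 4, or sedentary mouse 1 or 2 (adjusted p = 0.0530 to 0.0645). Trim7 no longer passed without exercised mouse 2, 3 or 4, any sedentary mouse, or sedentary VV mouse 2 (adjusted p = 0.0505 to 0.144) or with no filter on low values, after median-ratio scaling or when the 8 MM mice were fitted alone. Klhl8 no longer passed without exercised mouse 1, 2 or 3, or sedentary mouse 1 or 4 (adjusted p = 0.0746 to 0.0885) or when the 8 MM mice were fitted alone. Ppcs, Ado and AI464131 had changes under 0.5 log2 units. Ppcs no longer passed without any MM mouse, exercised VV mouse 1 or 2, or any sedentary VV mouse (adjusted p = 0.0501 to 0.152) or with no filter on low values or when the 8 MM mice were fitted alone. Ado no longer passed without any MM mouse, exercised VV mouse 2 or 3, or sedentary VV mouse 1, 2 or 3 (adjusted p = 0.0529 to 0.129) or when the 8 MM mice were fitted alone. AI464131 no longer passed without any MM mouse, or sedentary VV mouse 2 (adjusted p = 0.0505 to 0.145) or with no filter on low values, after median-ratio scaling, with plain eBayes or when the 8 MM mice were fitted alone.

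Several lists showed small values throughout. The 40 tested cytosolic ribosomal protein genes had 0 that passed and changes between -0.04 and 0.19, with 37 above 0. The 40 nuclear-encoded respiratory chain genes lay between -0.11 and 0.12 with 9 above 0, and 0 passed. Of 29 calcium handling and CaMK genes 0 passed, 5 were above 0 and the median was -0.10, against -0.05 over all tested genes. None of 18 clock genes (median -0.11), 25 cholesterol synthesis genes (median -0.08), 14 neuromuscular junction genes (median -0.09) or 13 fast fibre genes (median -0.03) passed. A list with no member past the threshold is not shown to be without change.

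Matrix genes leaned upward without passing as a rule. All 24 tested collagen and basement membrane genes were above 0, between 0.03 and 0.63, with a median of 0.37, and 0 passed. Their sum was 362 to 692 FPKM in exercised mice and 365 to 554 FPKM in sedentary mice, and exercised mouse 3 lay under every sedentary mouse. In 2 of the 24 genes the mice were apart. Over all tested genes 6.74% were apart in either direction and 3.39% above, so nothing is read from that count. In the list of ADAMTS, MMP, TIMP and plasminogen genes 2 of 19 rose, 16 were above 0 and the median was 0.39. F3, tissue factor, which starts coagulation, had 6.98, 6.37, 7.55 and 8.72 FPKM in exercised mice, against 4.26, 3.07, 2.61 and 4.03 FPKM in sedentary mice (log2 fold change 1.08, SE 0.22, adjusted p = 0.0220), and Adamts9, a secreted protease of proteoglycans, had 3.68, 3.07, 2.99 and 2.73 FPKM in exercised mice, against 2.43, 1.84, 1.16 and 1.13 FPKM in sedentary mice (log2 fold change 0.95, SE 0.22, adjusted p = 0.0431). Beside these stand the marker lists of other cells. The summed FPKM of 14 fibro-adipogenic and fibroblast markers was 922.5 to 1373 in exercised mice and 744.5 to 1019 in sedentary mice, all 14 were above 0 (median 0.41), and 1 passed, the joined entry Ly6a,Ly6c1 (0.32 ± 0.08, adjusted p = 0.0478). The part of such cells in the matrix values was not tested. F3 no longer passed without exercised mouse 1, 3 or 4, or sedentary mouse 2 or 3 (adjusted p = 0.0528 to 0.0854). Adamts9 no longer passed without any exercised mouse, sedentary mouse 2, 3 or 4, exercised VV mouse 1, 3 or 4, or sedentary VV mouse 1 or 4 (adjusted p = 0.0515 to 0.166) or with no filter on low values or when the 8 MM mice were fitted alone. Ly6a,Ly6c1 no longer passed without any exercised mouse, sedentary mouse 2, 3 or 4, exercised VV mouse 1, 3 or 4, or sedentary VV mouse 1, 2 or 3 (adjusted p = 0.0510 to 0.172) or with no filter on low values, after quantile normalization, with plain eBayes or when the 8 MM mice were fitted alone.

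Among markers of blood and immune cells, every tested marker was above 0 and 0 passed, and no T or NK cell marker was tested. The 2 tested B and plasma cell markers had a median of 0.65, and the 4 tested mast cell markers of 0.54. All 11 tested macrophage and monocyte markers were above 0 with a median of 0.79, 0 passed, and the summed level of the 19 listed genes in the table was 73.1 to 174 FPKM in exercised mice and 51.8 to 91.5 FPKM in sedentary mice. Cd163, a scavenger receptor of resident macrophages, had 5.36, 9.35, 3.18 and 9.72 FPKM in exercised mice, against 3.49, 3.10, 2.49 and 3.36 FPKM in sedentary mice and overlapped. The 5 tested erythroid markers were above 0 with a median of 0.69, and their sum was 165 to 303 FPKM in exercised mice and 101 to 180 FPKM in sedentary mice. Ly6g, the defining neutrophil marker, was listed at 0 in all 8 mice, and Cd3e and Cd4 of T cells reached at most 0.305 and 0.286 FPKM. S100a9, the 1 neutrophil marker tested, was at 0.447 to 1.68 FPKM in exercised mice and 0 to 1.01 FPKM in sedentary mice (log2 fold change 1.15). Among endothelial markers 0 of 13 passed with a median of -0.01. Their changes ran between -0.46 and 0.35, and the mice were apart in 4 of the 13, against 6.74% of all tested genes. Among adipocyte markers 0 of 10 passed with a median of -0.22. Tlr4, Il4ra and Ifi204, genes that leukocytes also use, rose beside these lists, Il4ra by 0.72 ± 0.15, adjusted p = 0.0253, and Ifi204 by 1.17 ± 0.24, adjusted p = 0.0220, and the part of leukocytes in those changes was not tested. Il4ra no longer passed without exercised mouse 1, 3 or 4, or sedentary mouse 2, 3 or 4 (adjusted p = 0.0504 to 0.0925). Ifi204 no longer passed without exercised mouse 1, 2 or 4, or sedentary mouse 2 or 3 (adjusted p = 0.0555 to 0.0854).

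The exercised mice differed in their levels of the genes that rose. Each mouse was sampled only 1 time, so a level is not the response of that mouse. Exercised mouse 3 was the lowest of the 4 in 59 of the 114 genes that rose and the highest in 20, while each of the others was the lowest in 13 to 28 and the highest in 26 to 38. It was the lowest in all 7 genes of the Xin and filamin list, in all 4 of the HSP70 list and in all 4 of the small heat shock list that rose. It was the highest in Ppargc1a, Prkag2, Angptl4, Gabarapl1, Fam134b, Hif1a, Trim63, Txnip, Ern1 and 11 further genes. In the same mouse the tested adipocyte markers summed to 1396 FPKM, against 564 to 873.5 FPKM in the other exercised mice, and the sums of the 11 tested macrophage markers (69.9 FPKM), fibroblast markers (922.5 FPKM) and collagens (362 FPKM) were the lowest of the exercised mice. Their part in its order was not tested. Without this mouse 108 genes passed, 99 of them risen. Among sedentary mice, mouse 1 was the highest in 50 and mouse 3 the lowest in 42 of the genes that rose.

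Principal components of the 8 MM mice were taken over all tested genes without choosing genes, so the called genes are among them. Component 1 held 28.4% of the variance, and the exercised mice stood between 8.25 and 22.8 on it and the sedentary mice between -18.6 and -13.5, a difference of 30.2 log2 units. An exact two-sided permutation test over the 70 splits gave p = 0.0286, the smallest p that 4 against 4 mice allow, and 0.0857 after adjustment over 3 components. Component 2 (21.8%) differed by 5.06 with an exact p = 0.571, and component 3 (14.2%) by 0.86 with an exact p = 0.943. Atf3, Rnu6, Nr4a3, Snord22 and Snora64 had the largest loadings on component 1. Rnu6, Snord22 and Snora64 are small RNAs that a poly(A) library captures erratically. Snord22 had 0, 19.99, 32.01 and 17.0 FPKM in exercised mice, against 0, 0, 0 and 0 FPKM in sedentary mice, and none of the 3 passed.

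**Figure D5:**
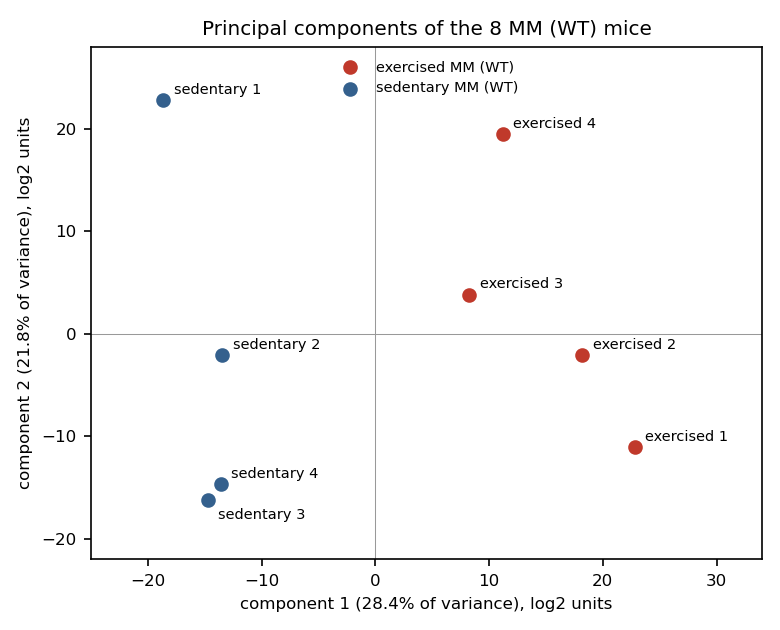
Scores of the 8 MM (WT) mice on principal components 1 and 2 of log2(FPKM + 0.1) over the 10519 tested genes, exercised red and sedentary blue. Exercised mice lie at 8.25 or above on component 1 and sedentary mice at -13.5 or below, and exercised mouse 3 is the exercised mouse nearest to the sedentary mice on it.

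The MM response was set against that of the VV mice, which ran the same protocol. The difference of the exercise effects, VV minus MM, passed in 0 of 10519 genes (limma, smallest adjusted p = 0.9997), and 195 genes, 1.85%, had an unadjusted p under 0.05. Of the 129 genes called in MM, 127 had the same sign in VV and 16 had an unadjusted p of the difference under 0.05. These genes were picked by their MM effect, which the difference also contains, and that choice favours small p of the difference. The 16 and the 5 genes named below are therefore not read against the 1.85%, and no share over all tested genes was taken for the 127. In VV mice alone 29 genes passed, 0.276%. The 5 smallest p among the genes called in MM were those of Anxa8, an annexin, Cgref1, A630019I02Rik, Ifi204 and Dynlt1b. Anxa8 had a log2 fold change of -0.04 in VV and 1.08 in MM, Cgref1 of 0.38 in VV and 1.52 in MM, and A630019I02Rik of -0.02 in VV and 2.10 in MM. Ifi204 had 0.15 in VV and 1.17 in MM, and Dynlt1b -0.18 in VV and -1.47 in MM. Their unadjusted p of the difference ran between 0.00266 and 0.0148, their adjusted p was 0.9997, and with all 16 mice a difference between the genotypes is not shown for any of them. Without sedentary mouse 4 the difference passed for 1 gene, A630019I02Rik, with log2 fold changes of -0.02 in VV and 2.75 in MM (adjusted p = 8.51e-04). Anxa8 no longer passed in MM without exercised mouse 1, 2 or 4, or sedentary mouse 1 or 4 (adjusted p = 0.0630 to 0.0892).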

How the data were processed

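Stranded poly(A) libraries of 16 quadriceps, 1 per male mouse, had been read from both ends. The values deposited by the authors are FPKM, a gene's fragments divided by transcript length and library size, and they were used as they stand. A shift in a few very abundant genes therefore lowers all others. Read counts were not analysed here, and precision follows from the spread between mice alone. Tools listed in the submitters' processing notes are Cuffdiff 2.2.1, TopHat, StringTie, FastQC and SAMtools, with the build mm10; their order, remaining versions and gene models stay not given in the sources used here. Of 18873 rows, 8 had missing values and were left out, and every column of the table was used. In 271 tested entries overlapping genes are joined under 1 name, and these, like near-identical copies, are uncertain.

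FPKM values were log2-transformed after adding 0.1, so changes of low genes are understated. The 10519 genes averaging 1 FPKM or more across all mice were fitted in R 4.3.3 with limma 3.58.1 as 4 group means with eBayes (trend and robust), so that MM and VV mice share an estimate of the spread. Tests were two-sided, p was adjusted by Benjamini-Hochberg, and the threshold was 0.05. Relative depth was read from values under 0.5 FPKM. Components were compared by exact permutation. The fit was tested on simulated data before use. Tables and figures used Python 3.11.15, pandas 2.3.3, numpy 2.4.6 and matplotlib 3.10.9. Sequences and coordinates are RefSeq's for GRCm38.p6, the assembly that mm10 names.

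Groups were taken from the genotype and treatment in the labels. Members, gene lists (45 pathway and 14 marker lists) and tests were chosen with earlier results of these data known. Named genes are the 20 highest log2 fold changes among passing genes with exercised mice above all sedentary mice, all that fell, the passing members of each list with up to 3 of its largest changes, and the 5 smallest p for the difference between VV and MM; others are marked as named after their values were seen. A few genes that this rule takes are not reported here. Alternatives were pseudocounts of 1 and 0.01, no filter, a mean of 5 FPKM or more, median-ratio scaling, quantile normalization, plain eBayes, the 8 MM mice alone, sample quality weights and each mouse left out. No fold changes or p-values of the authors were used.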

Additional observations from a re-analysis of the deposited data

Results flagged for a closer look

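Of the 186 groups of 4 mice behind the 93 named genes, 8 had 1 mouse far from the other 3, by Dixon's criterion at the 95% level. About 1 group in 20 is picked in this way by chance, 9.3 of 186.

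In exercised mouse 3, Angptl4 stood at 16.2 FPKM, against 8.204 to 8.906 FPKM in the other exercised mice, and Gabarapl1 at 86.1 FPKM, against 66.2 to 68.5 FPKM. Midn was at 12.7 FPKM in exercised mouse 2, under the 16.7 to 17.5 FPKM of the others.

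In sedentary mouse 4, A630019I02Rik stood at 97.1 FPKM, against 10.4 to 23.1 FPKM in the other sedentary mice, Egr1 at 7.03 FPKM, against 1.08 to 1.54 FPKM, and Hspb1 at 81.5 FPKM, against 61.4 to 64.4 FPKM. Nr4a3 was at 4.58 FPKM in sedentary mouse 1, against 0.651 to 1.07 FPKM in the others, and Trim7 at 13.7 FPKM in sedentary mouse 3, against 11.8 to 11.9 FPKM.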

How the results depend on the processing

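The number of genes that passed was 129 and ran between 96 and 156 under 8 of the 9 other settings; sample quality weights gave 235, with 195 that rose and 40 that fell. The 15 falls became 24 after quantile normalization and 6 when the 8 MM mice were fitted alone. With 1 mouse left out, 69 to 135 genes passed, 65 to 121 rose and 4 to 16 fell. The difference of the exercise effects passed in 0 to 1 genes with 1 mouse left out and in 0 under the other settings. Component 1 differed by 29.0 to 32.6 with 1 MM mouse left out and by 23.1 to 30.5 under the other settings. No named gene changed sign. Of 2305 repeats of the named genes, 282 calls were lost and 4 gained without 1 mouse, and 52 were lost and 6 gained under other settings: Hmox1 passed after median-ratio scaling, after quantile normalization, in MM mice alone and with weights, Klf10 with weights and Mt1 in MM mice alone. No scaling moved the median of all genes by more than 0.04 log2 units. The causes were not tested. With 4 mice a group, small changes can be missed. No paired analysis was possible because no exercised MM mouse shares the number before the dash of its name with a sedentary MM mouse, and only 1 number is shared by exercised and sedentary VV mice.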
